A study of Mus musculus with 20 samples.

Results

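The semaphorins and plexins described here are 6 genes for guidance ligands (Sema3a, Sema3d, Sema3f, Sema3g, Sema6a and Sema7a) and 4 genes for their receptors (Plxna1, Plxna2, Plxnb2 and Plxnd1), chosen by symbol from a family known to steer vessels and dendritic cells. All 10 were found among the 24062 gene symbols of the deposited count tables. The libraries came from dermal lymphatic endothelial cells (LECs), sorted as CD31+podoplanin+ cells from the ear skin of wild type mice (C57BL/6 in the labels, C57BL/6N in the study's methods) at postnatal day 56. No gene was deleted and no agent was given in any group. By the labels the groups differ in the time of collection alone, ZT1, ZT7, ZT13 or ZT19, where ZT is zeitgeber time, the hours since lights came on. Each of the 4 time points has 5 libraries, 20 in all, and each library pooled 4 ears from 2 mice, so that a value is that of a pool. The comparison asks whether genes by which LECs guide other cells changed with the time of day.

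Semaphorins are secreted or membrane-bound proteins that share the sema domain, and plexins are the receptors that bind this domain. Class 3 semaphorins are secreted and mostly act through a complex of a plexin of the A or D type with a neuropilin, NRP1 or NRP2, whereas class 6 semaphorins bind A-type plexins directly and SEMA7A is held on the membrane by a lipid anchor. Inside the cell, plexins switch off small GTPases of the Ras and Rap families and loosen integrin adhesion and the actin skeleton. In lymphatic vessels SEMA3A with NRP1 and PLXNA1 is known for valve formation, and SEMA3A made by lymphatic vessels is known for drawing PLXNA1-bearing dendritic cells through the vessel wall.

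Between 4475111 and 42002363 reads per library were counted on genes (median 9379794). The share of reads on a gene, among reads given to a gene or to none, ran from 12.7% to 81.6% and was not even over time. It lay between 20.2 and 29.5% at ZT1, between 12.7 and 62.3% at ZT7, between 20.1 and 79.9% at ZT13, and between 35.0 and 81.6% at ZT19. Of the 8 LEC markers listed, 7 were found in quantity in all libraries, with Mmrn1 the highest in normalised counts and Lyve1 per transcript length. Ccl21a, the main LEC chemokine gene, was listed at 0 in all 20. The summed LEC markers ranged from 44357 to 108739 normalised counts (counts divided by the scaled library size), and the summed keratinocyte markers, led by Krt14, from 11573 to 33874 at ZT13 and from 97503 to 202742 at ZT19. In bulk RNA, fewer cells of a type and less RNA per cell cannot be told apart.

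The 10 genes differed widely in level per transcript length, given as TPM, the counts per exonic length scaled to the same total in each library (mean ± SD, n = 20 libraries). Sema6a, which encodes a transmembrane ligand of A-type plexins, was the highest at 101 ± 34.0 TPM. It was followed by the secreted ligands Sema3d at 68.7 ± 22.4 TPM and Sema3f at 59.8 ± 20.6 TPM. The receptors and Sema3a stood close together lower down. Plxnb2 was at 23.9 ± 9.57 TPM, Plxna1 at 20.7 ± 10.97 TPM, Sema3a at 17.5 ± 6.53 TPM, Plxnd1 at 16.8 ± 13.5 TPM and Plxna2 at 15.7 ± 4.92 TPM. Sema7a (2.86 ± 4.77 TPM) and Sema3g (1.99 ± 2.58 TPM) were lowest, and their SD exceeded their mean. Sema6a lay above Sema3d in 20 of 20 libraries, Sema3f above Plxnb2 in 20 and Plxna2 above Sema7a in 19. Neighbours elsewhere in this order did not separate beyond their spread: Sema3d was above Sema3f in 12 libraries, Plxnb2 above Plxna1 in 12, Plxna1 above Sema3a in 13, Sema3a above Plxnd1 in 13, Plxnd1 above Plxna2 in 8 and Sema7a above Sema3g in 12.

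**Figure D1:**
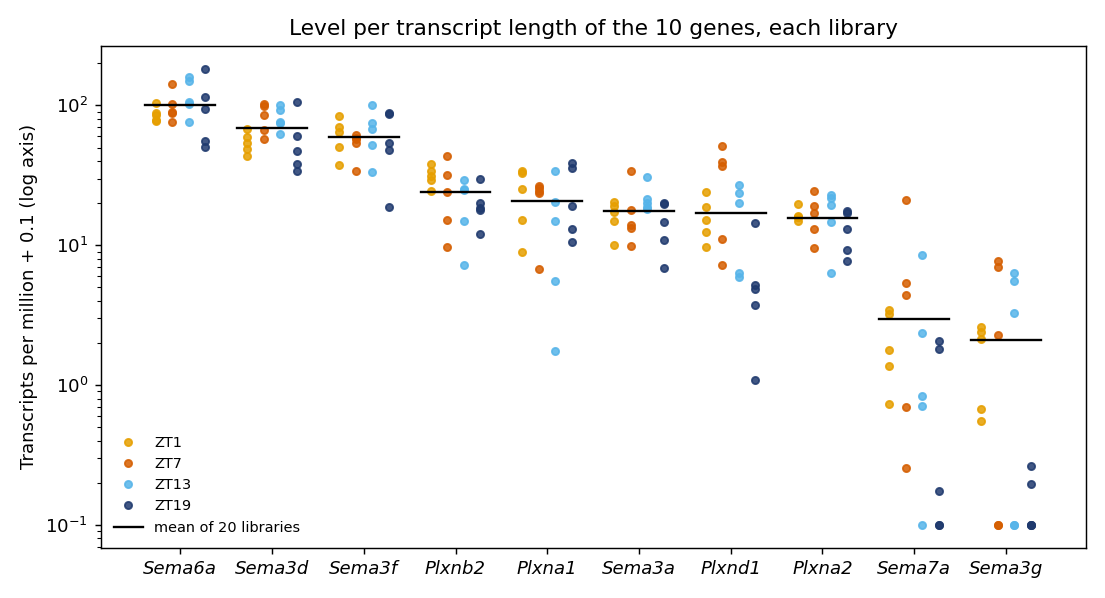
Level per transcript length of the 10 genes in each of the 20 libraries, as TPM + 0.1 on a log axis, with time points in colour and a bar at the mean of 20 libraries. Sema6a (101 TPM), Sema3d (68.7 TPM) and Sema3f (59.8 TPM) stand above the other genes, and Sema7a and Sema3g reach 0 in some libraries.

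None of the 10 genes passed edgeR's quasi-likelihood test for a change with the time of day. Among the 4 time points 0 of 10 passed a Benjamini-Hochberg adjusted p of 0.05, where 0.422% of the 19209 genes tested did, and for a 24-h cosine rhythm 0 of 10 passed, against 0.0312% of genes. At an unadjusted p of 0.05, Plxnd1 and Plxnb2 passed among the time points (2 of 10, against 15.7% of all genes) and for the rhythm (2 of 10, against 9.23%). DESeq2 called 1 gene among the time points, Plxnd1, where it called 3.45% of genes, and 0 of the 8 it gave an adjusted p for the rhythm, where it called 0.741% (Sema3g and Sema7a got none).

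Between pairs of time points edgeR called 0 of the 60 gene-by-pair differences. The share of all genes it called was 0.00521% for ZT1 and ZT7, 0.0208% for ZT1 and ZT13, 0.0156% for ZT1 and ZT19, 0.0937% for ZT7 and ZT13, 0.0156% for ZT7 and ZT19 and 0.588% for ZT13 and ZT19. At an unadjusted p of 0.05 the members passing in these pairs, in the same order, were 2, 1, 4, 0, 2 and 2 of 10, against 4.97%, 5.37%, 21.6%, 2.59%, 19.7% and 19.2% of all genes. The counts over all genes rested on single libraries: the 3 genes called between ZT1 and ZT19 became 902 without replicate 4 of ZT19, the 113 between ZT13 and ZT19 became 853 without replicate 5 of ZT13, and the 81 among the time points lay between 30 and 178 with each library left out in turn. Of the 10 genes 0 were called in each of those fits. DESeq2 called 7 of the 60, all of them lower at ZT19. These were Plxnd1 and Sema3g from ZT1 (2 of 10, against 10.5% of genes), the same genes from ZT7 (2 of 10, against 11.8%) and both with Sema3d from ZT13 (3 of 10, against 9.34%). In the other pairs DESeq2 called 0 of the 8 genes with an adjusted p, again without Sema3g and Sema7a, against 0.113% for ZT1 and ZT7, 0.615% for ZT1 and ZT13 and 0.668% for ZT7 and ZT13.

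ZT19 was the lowest time point for 7 of the 10 genes, as it was for 46.0% of all genes tested, and the highest for none of them. From ZT1 to ZT19 all 10 fitted differences were negative, with a median of -0.60 on the log2 scale, where the median over all genes was -0.39 and 62.5% of them (12003 of 19209) were negative. Sema6a at -0.16 and Sema3d at -0.34 lay above that median and Plxnd1 at -1.77 far below it. All 10 were negative with DESeq2 too, but there their median of -0.68 lay close to that over all genes, which was -0.71, and on the TPM scale the ZT19 mean lay above that of ZT1 for Sema6a (99.6 and 86.4 TPM), Sema3d (56.9 and 54.7 TPM) and Plxna1 (23.3 and 23.1 TPM). Sema6a turned positive without replicate 3 of ZT13 or replicate 1 of ZT19. Once the share of reads on genes entered the fit, 8 of the 10 differences were negative (median -0.31, where that over all genes turned to 0.11), Sema7a turned from -1.67 to 1.97 and Plxna1 from -0.40 to 0.42. In that fit ZT19 was the lowest time point for 3 of the genes (Sema3a, Sema3d and Plxnd1) and the highest for 2 (Sema7a and Plxna1). The shares did not overlap between ZT1 (20.2 to 29.5%) and ZT19 (35.0 to 81.6%). Time and share cannot be told apart in that pair, here and wherever this fit is given for it below. In 4 genes, Sema3g, Plxna2, Plxnb2 and Plxnd1, the 5 ZT1 libraries all lay above the 5 ZT19 libraries, a separation in one or the other direction that 8.56% of all genes tested showed. In the other 5 pairs of time points 0 of the 10 genes were separated in this way, against 1% to 2.48% of all genes. The summed markers of 3 other cell types also did not overlap between ZT1 and ZT19. Those of leukocytes (8 genes) ran from 229.9 to 696 normalised counts at ZT1 and from 0 to 199.9 at ZT19, those of mural cells (7 genes) from 1145 to 1936 and from 233 to 1017, and those of keratinocytes were higher at ZT19, with 37713 to 77379 at ZT1. Between ZT1 and ZT7 the 10 fibroblast markers did not overlap either, with sums from 4829.98 to 16408 and from 848 to 4289. Apart from the keratinocyte markers, their part in these differences was not tested.

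**Figure D2:**
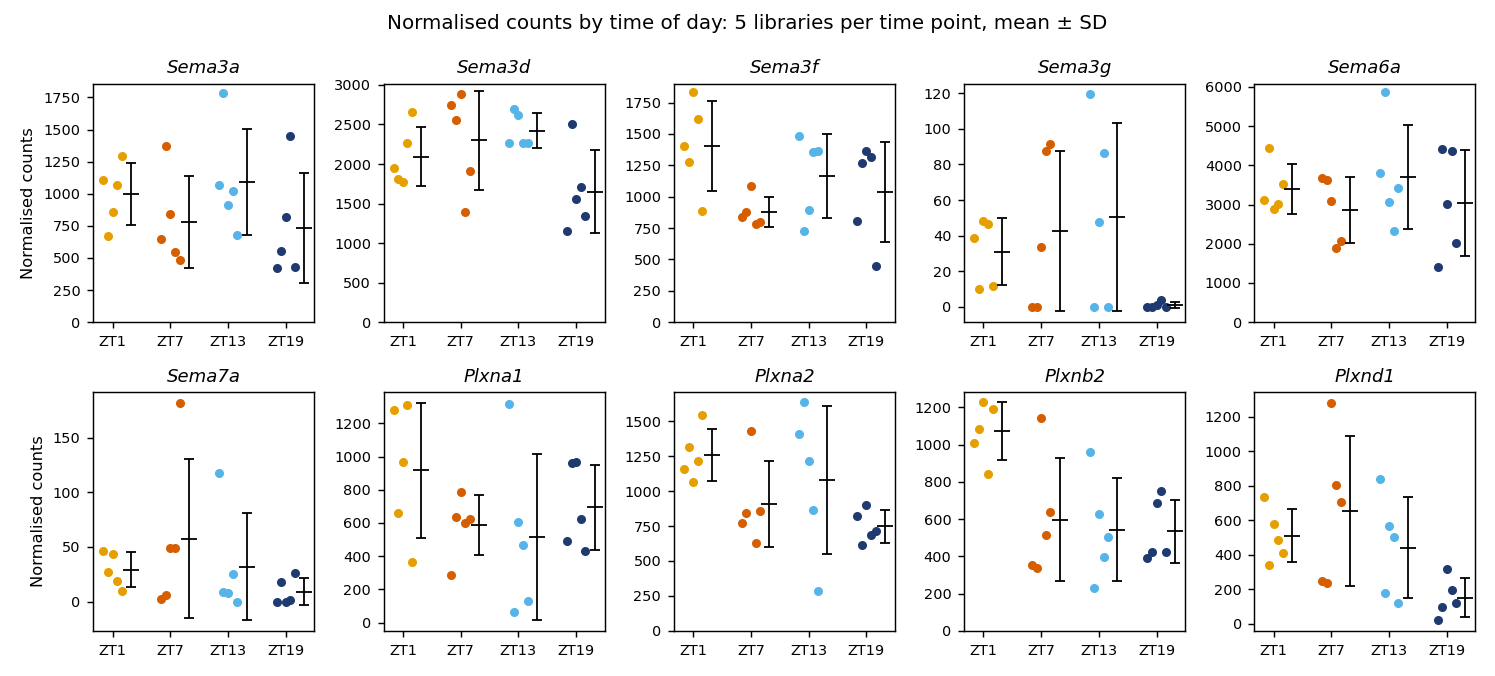
Normalised counts of the 10 genes at each time point, with 5 libraries per time point as dots and the mean ± SD beside them. Plxnb2 is at 842 to 1230.05 at ZT1 and at 390.2 to 751 at ZT19 without overlap, whereas the time points of Sema6a overlap throughout.

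Among the secreted ligands, Sema3a encodes the classic repulsive guidance cue that binds NRP1 (ENSMUSG00000028883, GRCm38 chr5:13125414-13602565, plus strand). Its 5 libraries held 1109, 668, 860.1, 1068 and 1291 normalised counts at ZT1 and 650.1, 1369, 844, 544 and 482 at ZT7. At ZT13 they held 1066, 1784, 914, 1021 and 680.1, and at ZT19 424, 553, 817, 1446 and 427. Every time point overlapped the others, and the highest library of ZT19 lay above all of ZT1 and ZT7. The fitted difference from ZT13 to ZT19 was -0.58 ± 0.37 (log2, SE; edgeR quasi-likelihood adjusted p = 0.396).

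Sema3d, a secreted semaphorin expressed in many endothelia, lies near Sema3a on chromosome 5 (ENSMUSG00000040254, chr5:12383385-12588948, plus strand). Its libraries held 1950.3, 1805, 1773, 2270.2 and 2660.3 normalised counts at ZT1 and 2747, 2552, 2886, 1389 and 1916 at ZT7. At ZT13 they held 2263, 2698, 2622, 2266 and 2267, and at ZT19 1157, 2504, 1552, 1705 and 1337. Of the ZT19 libraries 4 fell below all 5 of ZT13, and replicate 2 of ZT19 lay among them. The difference from ZT13 to ZT19 was -0.55 ± 0.29 (log2, SE) with an edgeR quasi-likelihood adjusted p of 0.301 and a DESeq2 adjusted p of 0.0435. Its promoter is printed for contrast with the plexin promoters given further on, since none of the motifs searched there occurs in it. This does not set semaphorins apart from plexins, since the promoters of Sema3g and Sema7a hold the GC box searched there. The Sema3d sequence is the 250 bases before the RefSeq start (GRCm38.p6, chr5:12382916-12383165, plus strand).
Sema3d: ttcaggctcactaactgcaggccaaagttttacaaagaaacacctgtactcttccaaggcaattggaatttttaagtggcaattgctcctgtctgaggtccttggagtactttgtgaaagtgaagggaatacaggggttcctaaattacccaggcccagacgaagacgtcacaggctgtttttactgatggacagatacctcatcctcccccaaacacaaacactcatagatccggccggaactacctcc

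Sema3f encodes a secreted ligand that acts mainly through NRP2 (ENSMUSG00000034684, chr9:107681500-107710475, minus strand). Its mean was 1403 ± 358 normalised counts at ZT1 and 876 ± 119.8 at ZT7, against 1165 ± 334 at ZT13 and 1038 ± 400.2 at ZT19 (SD, n = 5 each). The ZT7 libraries lay between 784 and 1081 and those of ZT1 between 888 and 1832, so that the pair overlapped. The difference from ZT1 to ZT7 was -0.68 ± 0.32 (log2, SE; edgeR quasi-likelihood adjusted p = 0.966).

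Sema3g, a class 3 ligand known from arterial endothelium, was barely detected (ENSMUSG00000021904, chr14:31217860-31230352, plus strand). Its normalised counts were 38.5, 10.1, 48.1, 46.4 and 11.97 at ZT1 and 0, 0, 33.9, 87.6 and 91.3 at ZT7. At ZT13 they were 119, 0, 47.6, 86.3 and 0, and at ZT19 0, 0, 1.29, 3.87 and 0. Within ZT7 and ZT13 the libraries split between 0 and levels of 33.9 or more, and the 5 ZT19 libraries lay below all of ZT1. Over the ZT19 libraries only 5 reads were counted, 2 in replicate 3 and 3 in replicate 4, and a count of 0 in the others allows a share of up to 8.33e-06 to 1.35e-05% of the reads on genes (3 counts, counting error only). No fold is given for that reason. The edgeR quasi-likelihood adjusted p was 0.125 between ZT13 and ZT19, where that of DESeq2 was 0.00943. Once the share of reads on genes entered the fit, ZT7 and not ZT19 was the lowest time point of the gene (edgeR quasi-likelihood adjusted p = 0.679 among the time points).

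Of the membrane-bound ligands, Sema6a (ENSMUSG00000019647, chromosome 18, minus strand) had the largest p of the 10 genes. Its libraries held 3123, 4446, 2892, 3005 and 3527 normalised counts at ZT1 and 3668, 3622, 3087, 1885 and 2057 at ZT7. At ZT13 they held 3799.9, 5861, 3059, 2322 and 3424, and at ZT19 1399, 4427, 3016, 4354 and 2020.3. The time points overlapped throughout, and ZT19 alone spanned 1399 to 4427. The test among the time points gave an edgeR quasi-likelihood adjusted p of 0.894, and the difference from ZT7 to ZT13 was 0.37 ± 0.35 (log2, SE).

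Sema7a, which encodes the lipid-anchored ligand that binds integrins and PLXNC1 (ENSMUSG00000038264, chr9:57940112-57962865, plus strand), was low and uneven. It ran from 9.58 to 46.5 normalised counts at ZT1, from 2.46 to 181 at ZT7, from 0 to 118 at ZT13, and from 0 to 25.97 at ZT19. All time points overlapped, and 3 libraries held no read of it. The edgeR quasi-likelihood test among the time points gave an adjusted p of 0.751.

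Among the receptors, Plxnd1 (ENSMUSG00000030123, chr6:115954811-115995005, minus strand), the endothelial plexin that SEMA3E binds without a neuropilin, had the smallest p of the 10 genes. Its libraries held 734, 339, 579, 487 and 409 normalised counts at ZT1 and 247, 233, 1278, 805 and 705 at ZT7. At ZT13 they held 836, 179, 563, 504 and 119.9, and at ZT19 20.7, 95.5, 315, 196 and 122. The ZT19 libraries lay below all those of ZT1, but overlapped ZT7, where 2 libraries were low, and ZT13, where 2 were low as well.

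The mean of Plxnd1 was 509.8 ± 154 normalised counts at ZT1 and 654 ± 435 at ZT7, against 441 ± 295 at ZT13 and 149.9 ± 112 at ZT19 (SD, n = 5 each). The difference from ZT7 to ZT19 was -2.13 ± 0.59 (log2, SE), with an edgeR quasi-likelihood adjusted p of 0.107 for the pair and of 0.221 among the time points. DESeq2 gave adjusted p-values of 0.00269 and 0.0485 for the same comparisons. The fitted 24-h curve peaked at 6.62 h with a log2 amplitude of 1.07 (edgeR quasi-likelihood adjusted p = 0.445). The low libraries of ZT7 and ZT13 were those with the highest shares of reads on genes at their time points, as described further on. Once that share entered the fit, the difference was 0.63 in the direction of ZT7 (edgeR quasi-likelihood adjusted p = 0.885 among the time points).

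Plxnb2, a B-type plexin that binds class 4 semaphorins (ENSMUSG00000036606, chr15:89155549-89180788, minus strand), was highest at ZT1. It is also in the adhesion gene list that the study chose on these libraries, which is therefore no independent evidence. Its libraries held 1009, 1085, 1230.05, 842 and 1190.1 normalised counts at ZT1 and 351, 338, 1142, 515 and 637 at ZT7. At ZT13 they held 962, 229, 627, 397 and 505, and at ZT19 390.2, 424, 686, 751 and 423. All of ZT1 lay above all of ZT19, and 1 library of ZT7 and 1 of ZT13 reached into the range of ZT1.

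The mean of Plxnb2 was 1071 ± 155 normalised counts at ZT1 and 535 ± 169.6 at ZT19 (SD, n = 5 each). The difference was -1.003 ± 0.37 (log2, SE) with an adjusted p of 0.123 for the pair and of 0.260 among the time points (edgeR quasi-likelihood test), and DESeq2 gave 0.0613 for the pair. Already between ZT1 and ZT7 the difference was -0.85 ± 0.37 (edgeR quasi-likelihood adjusted p = 0.929). Once the share of reads on genes entered the fit, ZT1 lay 0.48 above ZT19 and 0.89 above ZT7, then the lowest time point (edgeR quasi-likelihood adjusted p = 0.490 among the time points). The gene still passed at an unadjusted p of 0.05 in that fit.

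Plxna1 and Plxna2 encode the A-type plexins that carry the signal of class 3 and class 6 semaphorins. Plxna1 (ENSMUSG00000030084, chr6:89316314-89362620, minus strand) ran from 366 to 1309 normalised counts at ZT1, from 288 to 789 at ZT7, from 62.6 to 1313 at ZT13 and from 429 to 968 at ZT19. The time points overlapped, and ZT13 held both the highest and the lowest library of the gene. The edgeR quasi-likelihood test gave an adjusted p of 0.728.

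Plxna2 (ENSMUSG00000026640, chr1:194618218-194816869, plus strand) was at 1155, 1315, 1066, 1213 and 1544 normalised counts at ZT1 and at 821, 611, 903, 684 and 718 at ZT19. All libraries of ZT1 lay above those of ZT19. At ZT7 its libraries lay between 625 and 1432 and at ZT13 between 282 and 1638, overlapping both. The difference from ZT1 to ZT19 was -0.75 ± 0.35 (log2, SE; edgeR quasi-likelihood adjusted p = 0.204). Once the share of reads on genes entered the fit, ZT1 lay 0.28 above ZT19 (edgeR quasi-likelihood adjusted p = 0.886 among the time points).

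The promoters of Plxnd1 and Plxnb2 are printed because these genes had the smallest p-values of the 10. RefSeq promoter sequences (GRCm38.p6) matched 7 of the 10 genes, with 2 entries for Plxnb2. In the 250 bases before each start, searched on both strands, the E-box CACGTG of the clock activators, the related CACGTT, the D-box TTANGTAA and the ETS motif CCGGAAG occurred in 0 of the 8 entries, where 6.02%, 3.85%, 2.06% and 6.91% of all 32851 promoters held them. AGGTCA, a motif bound by many nuclear receptors, occurred in 2 entries (14.0% of all promoters) and the GC box GGGCGG in 6 (32.7%). Those 6 were the entries of Plxna2, Plxnd1, Sema3g and Sema7a and the 2 of Plxnb2. They held 60.4 to 69.2% G and C, where the median over all promoters was 52.4%. Capitals mark the motif matches on either strand, none of which overlapped another motif of the search. The first sequence is chr6:115995006-115995255 and the second, the entry at the upstream start of Plxnb2, is chr15:89180789-89181038, both on the minus strand.
Plxnd1: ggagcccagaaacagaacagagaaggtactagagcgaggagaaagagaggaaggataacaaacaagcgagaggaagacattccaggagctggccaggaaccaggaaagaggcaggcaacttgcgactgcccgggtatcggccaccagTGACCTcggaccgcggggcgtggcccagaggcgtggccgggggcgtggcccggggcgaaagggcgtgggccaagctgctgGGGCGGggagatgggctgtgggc
Plxnb2: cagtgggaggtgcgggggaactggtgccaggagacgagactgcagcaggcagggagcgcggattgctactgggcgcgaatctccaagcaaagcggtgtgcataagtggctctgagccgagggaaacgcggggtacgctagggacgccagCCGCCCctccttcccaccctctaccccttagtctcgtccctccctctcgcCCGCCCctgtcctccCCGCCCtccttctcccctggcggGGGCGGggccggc
The Plxnd1 promoter holds 1 AGGTCA match, read on the other strand, and 1 GC box, and this Plxnb2 promoter holds 4 GC boxes. A match is a description of the letters and shows no bound factor.

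The level of each gene was then set against 2 properties of the libraries. The first is the LEC marker score, the mean of the centred log2 levels of the LEC markers. Over the 20 libraries 3 of the 10 genes correlated with it at an adjusted permutation p of 0.05 over 20 relations, all of them semaphorins and all positively. Adjusted over all genes tested, Sema6a and Sema3a passed and Sema3d did not, where 0.604% of genes passed with a positive r. Sema6a had r = 0.83 (Spearman rho 0.75, permutation adjusted p = 2e-04 for r) and 0.0677% of all genes tested had a higher r. Sema3a had r = 0.73 (rho 0.73, permutation adjusted p = 0.0028), with 0.515% of genes higher, and Sema3d had r = 0.58 (rho 0.42, permutation adjusted p = 0.0465), with 3.45% higher. The median over all genes was -0.02.

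Within time points the r with the LEC score was 0.87 for Sema6a, 0.67 for Sema3a and 0.67 for Sema3d, and leaving out the 2 libraries with the most extreme scores gave 0.79, 0.63 and 0.60. For Sema3d the rank correlation did not pass (permutation adjusted p = 0.420), and its r lost the call without any 1 of 10 of the 20 libraries: replicates 4 and 5 of ZT1, 2 and 4 of ZT7, 2 and 4 of ZT13, or 1, 2, 3 and 5 of ZT19. The scores and the genes come from the same libraries on the same scale. None of the plexins and neither Sema3f, Sema3g nor Sema7a passed. With the keratinocyte score 0 of the 10 genes passed. Adjusted over all genes tested, 0.927% of genes passed with a positive r and 0.0469% with a negative r. Of the 10 genes Plxna1 had the largest r, 0.51 (permutation adjusted p = 0.115). It was -0.33 when the 2 libraries with the most extreme scores were left out. The r of Plxna1 therefore rests on those libraries.

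The second property is the share of reads on genes, taken as its log2 odds. This measure was added after the counts had been seen. Of the 10 genes 5 were lower where that share was higher, at an adjusted permutation p of 0.05 over 10 relations. The same 5 passed when adjusted over all genes tested, but 40.0% of all genes did so too, with a negative r, so that the count lies near the background. Plxnd1 had r = -0.89 (rho -0.89, permutation adjusted p = 5e-05, the smallest these permutations can give), with 0.770% of all genes lower. Sema3g had r = -0.87 (rho -0.86, permutation adjusted p = 5e-05), with 2.22% lower. Sema7a at r = -0.71, Plxna2 at -0.59 and Plxnb2 at -0.54 stood nearer to the median over all genes, which was -0.35, with 18.2%, 32.2% and 36.9% of genes lower. Sema6a had r = -0.06. Plxna2 lost the call without replicate 5 of ZT13, and Plxnb2 without replicate 2 or 3 of ZT7 or replicate 1 or 2 of ZT19.

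Within time points Plxnd1 kept r = -0.83 and Sema3g r = -0.82 (permutation adjusted p = 0.00185 for both) and the other 3 did not pass. When the 2 libraries with the most extreme shares were left out, the values were -0.87 and -0.88. At ZT7 the 2 libraries with the lowest Plxnd1, replicates 1 and 2, had 37.7% and 62.3% of their reads on genes, where the other 3 had 12.7 to 17.5%. At ZT13 the lowest, replicates 2 and 5, had 39.7% and 79.9%, where the others had 20.1 to 22.9%. Those same 4 libraries held no read of Sema3g.

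**Figure D3:**
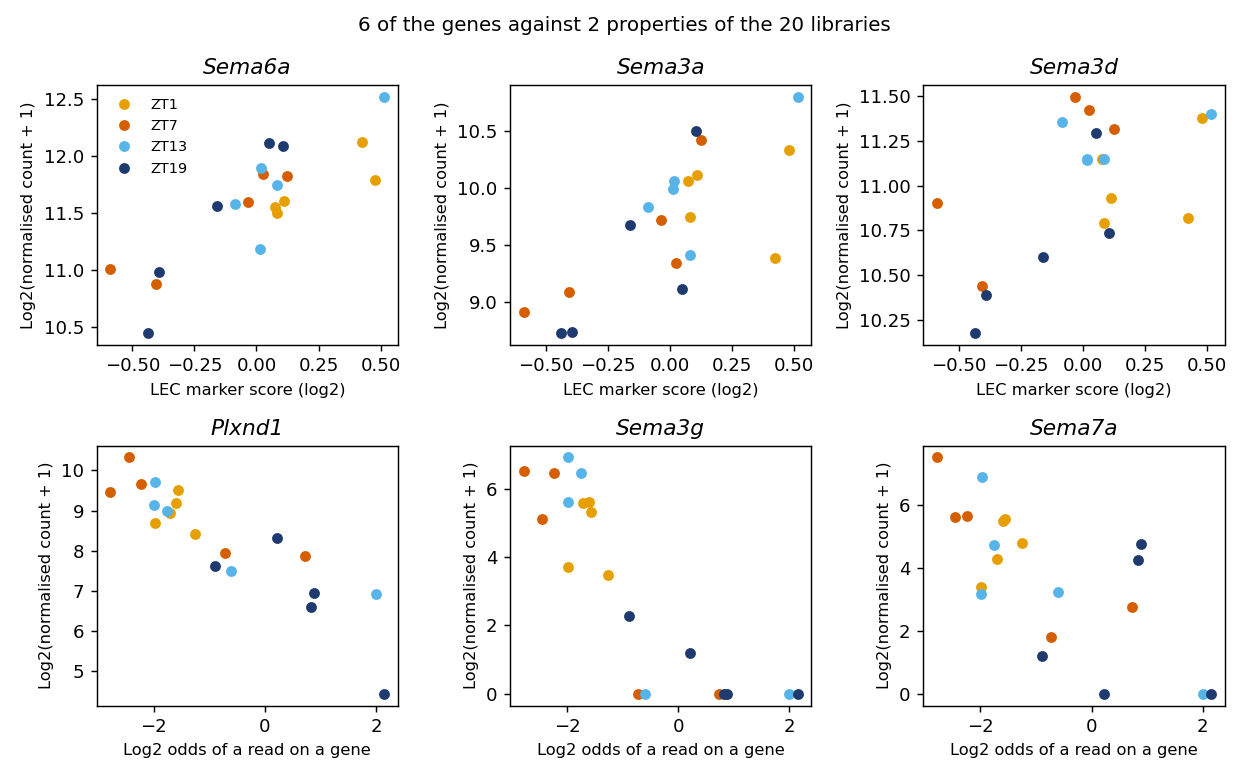
Log2(normalised count + 1) of 6 genes in the 20 libraries, with time points in colour. In the upper row Sema6a, Sema3a and Sema3d are higher with the LEC marker score (r = 0.83, 0.73 and 0.58), and in the lower row Plxnd1, Sema3g and Sema7a are lower with higher log2 odds of the share on genes (r = -0.89, -0.87 and -0.71).

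Among one another, as a description over the 20 libraries that share depth and scaling, the highest correlations were those of Plxnd1 with Sema3g (r = 0.82) and of Sema7a with Sema3g (r = 0.72), followed by Plxnd1 with Sema7a (r = 0.68), Sema6a with Sema3a (r = 0.65) and Sema6a with Sema3d (r = 0.65). Of 10719 genes with a mean of at least 100 normalised counts, those most like Plxnd1 were Dlgap1 (r = 0.93), Sfi1 (r = 0.92) and Neb (r = 0.91). Their own r with the log2 odds was -0.80, -0.90 and -0.91. Those most like Sema6a were the laminin chain gene Lama4 (r = 0.89), Sepn1 (r = 0.87) and the integrin gene Itgb3 (r = 0.86), whose r with the log2 odds was -0.01, -0.09 and -0.01.

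The other genes of the pathway were 14 semaphorins, 5 plexins, 10 co-receptors and 26 effectors. Of these 55, edgeR's quasi-likelihood test called 0 among the time points and 0 for the rhythm. At an unadjusted p of 0.05 it passed 8 of 55 among the time points, against 15.7% of all genes, and 6 of 55 for the rhythm, against 9.23%. DESeq2 called 3 among the time points (Sema3c, Sema4d and Sema6b, against 3.45% of genes) and 0 of the 46 it gave an adjusted p for the rhythm. Between pairs edgeR called 1 difference, that of Sema3c from ZT13 to ZT19 (1 of 55, against 0.588% of genes). DESeq2 called 15. They were those of Cfl1, Itga1, Mical3, Nrp2, Plxnb3 and Sema4d between ZT1 and ZT19 (6 of 55, against 10.5% of genes), of Plxnb3, Sema4d, Sema4f and Timd2 between ZT7 and ZT19 (4 of 55, against 11.8%) and of Mical3, Sema3c, Sema4d, Sema6b and Timd2 between ZT13 and ZT19 (5 of 55, against 9.34%). Without replicate 4 of ZT19 edgeR called 4 between ZT1 and ZT19 (Cfl1, Mical3, Nrp2 and Sema4b, where it then called 4.55% of genes). Per length, the highest of the other semaphorins and plexins were Sema6b at 38.7 TPM, Sema4b at 30.0 TPM and Plxna4 at 24.6 TPM, so that Sema6a, Sema3d and Sema3f were above all of them on average.

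**Figure D4:**
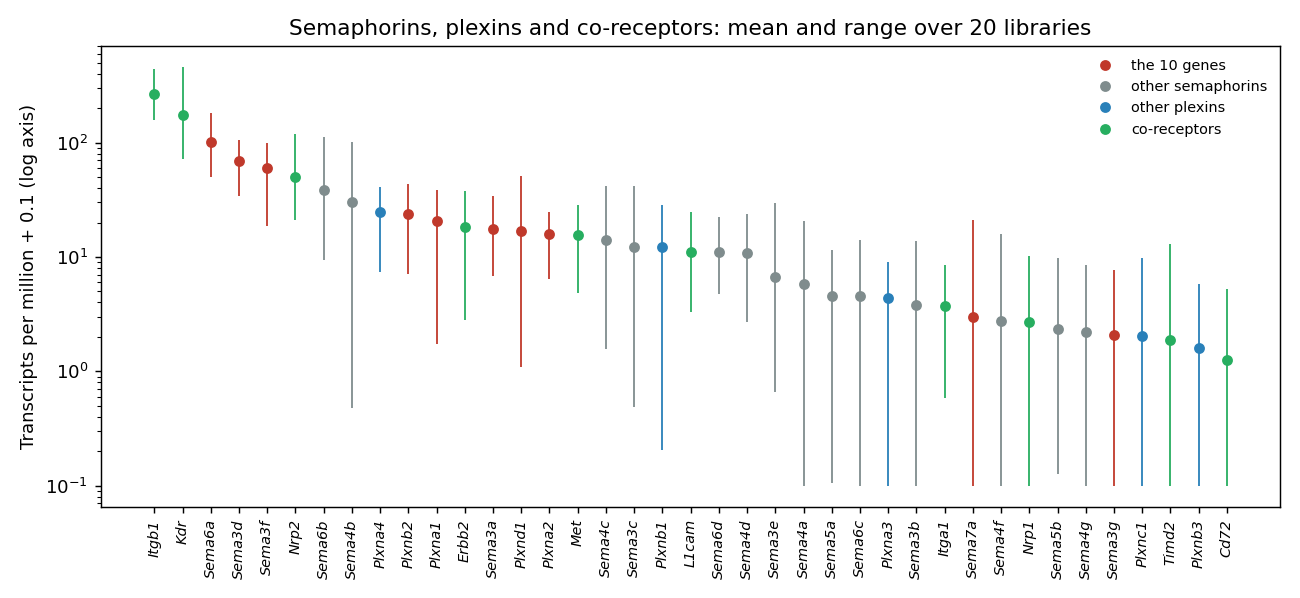
Mean (dot) and range (line) over 20 libraries of the level per length, as TPM + 0.1 on a log axis, for the 10 genes, other semaphorins, other plexins and co-receptors. Sema6a, Sema3d and Sema3f lead the semaphorins, Nrp2 (49.6 TPM) stands far above Nrp1 (2.62 TPM), and Plxna4 (24.6 TPM) has the highest mean of the plexins.

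Sema3c encodes a secreted ligand of neuropilins and PLXND1. Its libraries held 269.5, 765, 153, 215 and 62.3 normalised counts at ZT1 and 224, 184, 487, 90.6 and 462 at ZT7. At ZT13 they held 128, 11.7, 83.3, 87.4 and 40.8, and at ZT19 846, 719, 505, 312 and 285. The 5 libraries of ZT19 lay above all 5 of ZT13. The gene rose from ZT13 to ZT19 by 2.93 ± 0.64 (log2, SE; edgeR quasi-likelihood adjusted p = 0.0259). The keratinocyte markers moved with it: edgeR called 7 of the 14 among the time points, and the summed level of the 14 was at most 33874 normalised counts at ZT13 and at least 97503 at ZT19. With the keratinocyte score as a covariate the difference was 1.91 (edgeR quasi-likelihood adjusted p = 0.442). The summed markers did not overlap between ZT13 and ZT19, so that time and keratinocyte markers cannot be told apart in that fit. The cause of the rise was not tested. Without replicate 2 of ZT13, replicate 4 of ZT13 or replicate 1 of ZT19 the adjusted p was 0.0553, 0.0545 or 0.0519. It was 0.0728 with the replicate number as a block and 0.0815 with the share of reads on genes in the fit.

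The neuropilins, which class 3 semaphorins need to reach A-type plexins, differed in level. Nrp2, the neuropilin of lymphatic vessels, was at 49.6 ± 23.1 TPM, and Nrp1 at 2.62 ± 2.55 TPM (SD, n = 20). Nrp2 had 2157, 6839, 2759, 2205 and 4633 normalised counts at ZT1 and 709, 1738, 1346, 3093 and 1141 at ZT19. Of the ZT19 libraries 4 lay below all of ZT1, and replicate 4 lay within them. The difference was -1.21 ± 0.41 (log2, SE; edgeR quasi-likelihood adjusted p = 0.104). DESeq2 called this difference (adjusted p = 0.0169), and edgeR did so without replicate 4 of ZT19 (adjusted p = 0.0362). It was -0.96 with the share of reads on genes in the fit (edgeR quasi-likelihood adjusted p = 0.552) and -0.88 without replicate 2 of ZT1 (edgeR quasi-likelihood adjusted p = 0.221).

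Among the other semaphorins with the smallest p, Sema6b, a class 6 ligand, averaged 844 ± 217 normalised counts at ZT13 and 389.98 ± 210.3 at ZT1 (edgeR quasi-likelihood adjusted p = 0.212 among the time points). Sema4d, the ligand of PLXNB1 and PLXNB2, averaged 377 ± 116 at ZT7 and 133 ± 58.4 at ZT19 (edgeR quasi-likelihood adjusted p = 0.224). Among the other plexins, Plxnb3, Plxna4 and Plxnc1 had the smallest unadjusted p-values, 0.137, 0.247 and 0.277.

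The co-receptors Nrp2, Itga1 and Erbb2 had unadjusted p-values of 0.0204, 0.0281 and 0.155 among the time points. Of the effectors, the actin-severing cofilin gene Cfl1 averaged 2780.2 ± 289 normalised counts at ZT1 and 5544 ± 2086 at ZT19, and the GTPase gene Arf6 734 ± 354 at ZT13 and 1504.5 ± 479.9 at ZT19. Mical3, which encodes a flavoprotein that oxidises actin, averaged 2007 ± 512 at ZT1 and 1039.8 ± 458 at ZT19. The edgeR quasi-likelihood adjusted p among the time points was 0.260, 0.281 and 0.289 for Cfl1, Arf6 and Mical3.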

How the data were processed

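The authors mapped single-end reads of 100 nucleotides from amplified full-length cDNA to mm10 with STAR, counted them per gene with HTSeq-count 1.0.0 and deposited raw counts per gene symbol. Per the labels, groups are the 4 time points with 5 libraries each. The strand setting of the counting is not given in the sources used here. Replicates are separate pools of mice. Counts were fitted in R 4.3.3 with edgeR 4.0.16 (TMM scaling, low counts filtered by time point, quasi-likelihood F-tests, Benjamini-Hochberg adjustment over all 19209 genes, threshold 0.05), all 20 libraries sharing 1 estimate of the spread, after the fits had been tested on simulated data. Reads counted on no gene stayed out of library sizes. Normalised counts are counts over TMM-scaled library size, and log2 levels used a pseudocount of 1. TPM used exonic lengths of the GENCODE annotation of GRCm38. Correlations used 100000 permutations. Beyond the 10 genes, the text names Nrp1 and Nrp2, the 3 smallest p-values per list and the 3 highest other semaphorins and plexins. It also names the 3 genes most like Plxnd1 and Sema6a, the top LEC markers and the LEC marker at 0. Sema3c was also called between a pair. The members and lists were chosen with earlier results of these data known. Alternatives were DESeq2 1.42.0, RLE and upper-quartile scaling, other filters, the replicate number as a block, covariates, thinned counts and each library left out. Each total limits precision through counting error only.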

Additional observations from a re-analysis of the deposited data

Results flagged for a closer look

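Plxna1 at ZT7 had 1 library apart from the rest. Replicate 1 held 288 normalised counts where the other 4 held 600.1 to 789, and the gap to the nearest of them was 0.728 of the range of the group on the log2 scale, above the critical value of 0.71, but 0.623 on the linear scale, below it. It was the only one of 40 groups (10 genes at 4 time points) to stand out on the log2 scale, and chance flags about 2 of 40. This library had 37.7% of its reads on genes.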

How the results depend on the processing

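DESeq2 called 1 of the 10 genes among the time points, 7 of the 60 differences between pairs and 3 of the other pathway genes among the time points, where edgeR called 0 in each. A further fit left out both ZT7 replicate 2 and ZT13 replicate 5. They were chosen after seeing the data, as the libraries outside ZT19 with the highest shares of reads on genes. EdgeR then called 1 (Plxnd1), 5 (Plxnd1 and Sema3g) and 2 (Arf6 and Sema3c). Of all 19701 genes tested it called 4.28% over the day and 9.37%, 12.1% and 10.6% for ZT19 set against ZT1, ZT7 and ZT13. Plxnd1 was higher at ZT7 than ZT19 by 2.33 on the log2 scale. Its edgeR quasi-likelihood adjusted p among the time points was 0.0474. The shares of reads on genes were then 12.7 to 39.7% before ZT19 and 35.0 to 81.6% at ZT19, so that time and share cannot be told apart in that fit. Leaving out ZT19, also added after seeing the data, gave 0 in each, with only the pairs among ZT1, ZT7 and ZT13 remaining. Of all 18356 genes tested, that fit called 21 among the time points. It called 2 between ZT1 and ZT7, 2 between ZT1 and ZT13 and 18 between ZT7 and ZT13. The pathway genes' calls between pairs, 1 by edgeR, were 15 by DESeq2, 9 without those 2 libraries and 0 to 5 with each library left out. Leaving out each library in turn kept the first 3 counts and that for the rhythm at 0, and gave 0 to 1 genes with the keratinocyte score (Plxna1 without replicate 1 of ZT13, Plxna2 without replicate 5), 2 to 4 with the LEC score (Plxna2 was gained without replicate 5 of ZT13) and 4 to 5 with the log2 odds. Without the 2 libraries farthest from the median, 1 gene (Sema3g, r = -0.69) passed with the keratinocyte score and 2 with the log2 odds, as within time points (2). Once the share of reads on genes entered the fit, the Sema7a difference of ZT7 minus ZT19 turned from 2.65 to -1.84. The gene was then higher at ZT19, with an edgeR quasi-likelihood adjusted p of 0.910 among the time points. The cause was not tested. Plxnd1's difference of ZT7 minus ZT19 went from 2.13 to 0.63, and that of Sema3g turned too. Those of Sema7a and Plxna1 between ZT1 and ZT19 also turned, in a pair whose shares did not overlap. The edgeR quasi-likelihood adjusted p of Sema3c between ZT13 and ZT19 went to 0.0815. The replicate block left 0 of the 10 genes called among the time points and took the adjusted p of Sema3c between ZT13 and ZT19 to 0.0728. Of 30 correlations of same-numbered libraries, 12 were above 0.1 (range -0.54 to 0.34). Libraries with different numbers were not compared, so that these values cannot decide whether replicate numbers pair the samples. The other settings kept the side of the threshold for each of the 10 genes. Sema3g and Sema7a rest on few reads, with medians of 5.5 and 14 per library. The 7 and 3 libraries without a read of them held at least 10095110 and 15112966 reads on genes (median of all libraries 9379794). The cause of these counts of 0 was not tested.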
